A study of Mus musculus with 9 samples.

Results

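The sarcoplasmic reticulum calcium cycling genes described here are 10 genes that store, release, take back or extrude calcium in the heart muscle cell. They were Ryr2, Trdn, Asph, Casq2, Hrc, Sri, Atp2a2, Pln, Slc8a1 and Jph2. They were found by name among the 13539 genes listed, and all 10 passed the filter on low values that 8543 genes passed.

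Bulk RNA from mouse heart was sequenced in 3 groups of 3 libraries. The WT-ISO group came from wild-type mice given isoproterenol. The untreated KO group came from OMA1 knockout mice without treatment, and the KO-ISO group from OMA1 knockout mice given isoproterenol. All were male, 12 weeks old and on the C57BL/6JOlaHsd background. Isoproterenol, an agonist of the beta-adrenergic receptor, was delivered at 10 mg/kg per day from implanted minipumps for 7 days. The knocked-out gene encodes a protease that sits in the inner mitochondrial membrane and responds to stress. The untreated mice are described as non-treated, so the pump and the drug cannot be told apart. Wild-type hearts without the drug were not analysed here, so no interaction of genotype and drug was tested. WT-ISO and untreated KO hearts differed in both genotype and treatment. The labels do not say whether each library came from a separate animal or which chambers were taken, nor do they describe how the knockout was made. Adjusted p-values measure only the spread between these libraries.

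With each heartbeat, calcium entering through the surface channel opens the ryanodine receptor, and the sarcoplasmic reticulum releases its store into the cytosol. The SERCA2 pump returns most of it to the store, braked by phospholamban until beta-adrenergic signalling phosphorylates that inhibitor. The sodium-calcium exchanger carries the rest out of the cell. Calsequestrin binds calcium inside the store, while triadin and junctin tether it to the channel, and junctophilin holds the store against the surface membrane.

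The knockout check comes first. Oma1, in normalized counts, was at 22.0, 19.9 and 17.7 in WT-ISO, 6.52, 9.10 and 6.63 in untreated KO, and 6.74, 5.73 and 6.25 in KO-ISO hearts. Every knockout library was below every wild-type library. Read totals recovered from the deposited values ran from 6933879 to 12187701 per library. Within a group, most library pairs differed with a chi-square per degree of freedom of 2.25 to 3.66. Pairs that held WT-ISO replicate 3 or KO-ISO replicate 2 were at 8.12 to 10.9, so these libraries stood apart. The share of the counts from the mitochondrial genome was 36.7 to 37.3% in WT-ISO, 33.9 to 34.6% in untreated KO and 38.2 to 42.5% in KO-ISO hearts, highest in replicate 2.

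Markers of the cells a heart sample can hold also differed. All 10 ventricular and general myocyte markers were detected, and their sum ran from 45710 to 51768 in WT-ISO, 52899 to 57742 in untreated KO and 49015 to 52251 in KO-ISO hearts. The 5 atrial markers (Myl7, Myl4, Sln, Bmp10 and Nppa) summed to 1129 to 2526 in untreated KO hearts, 53.5 to 844 in WT-ISO and 87.8 to 119 in KO-ISO hearts. The 844 was WT-ISO replicate 3 alone, with 53.5 and 88.0 in the other WT-ISO libraries. It was nearly all Nppa, at 842. In the same library Myl7 was at 0.19, Myl4 at 1.06, and Sln and Bmp10 at 0. All 5 were lower in both treated groups than in untreated KO hearts, and Bmp10 was listed at 0 in all 6 treated libraries. Nppa was at 1616, 740 and 1101 in untreated KO hearts, so WT-ISO replicate 3 lay above untreated KO replicate 2. Myl7, Myl4, Sln and Bmp10 passed the filter on low values only through untreated KO hearts, so their calls partly follow from that filter. The 8 endothelial markers summed to 1863 to 2263 in KO-ISO, 1448 to 1599 in WT-ISO and 1022 to 1126 in untreated KO hearts. The 8 fibroblast markers summed to 967 to 1051 in untreated KO and 1773 to 1896 in KO-ISO hearts, and to 1620 to 3623 in WT-ISO hearts, where replicate 3 alone was at 3623. The 3 adipocyte markers summed to 13.4 to 59.3 in untreated KO hearts and to at most 0.52 in any treated library. Fewer cells of a type and less RNA per cell cannot be told apart in bulk samples. The part of these differences in the results below was not tested.

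KO-ISO hearts had lower levels than WT-ISO hearts for 6 of the 10 genes, and none was higher. The 6 were Slc8a1, Ryr2, Casq2, Atp2a2, Asph and Pln. Against untreated KO hearts, 8 were lower in KO-ISO hearts (these without Ryr2, with Trdn, Hrc and Jph2) and Sri was higher. WT-ISO hearts differed from untreated KO hearts in both directions, with Ryr2 and Sri higher and Trdn, Hrc and Jph2 lower. Calls rest on limma's test on log2(value + 1) with Benjamini-Hochberg adjustment over all 8543 genes, at a threshold of 0.05.

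**Figure D1:**
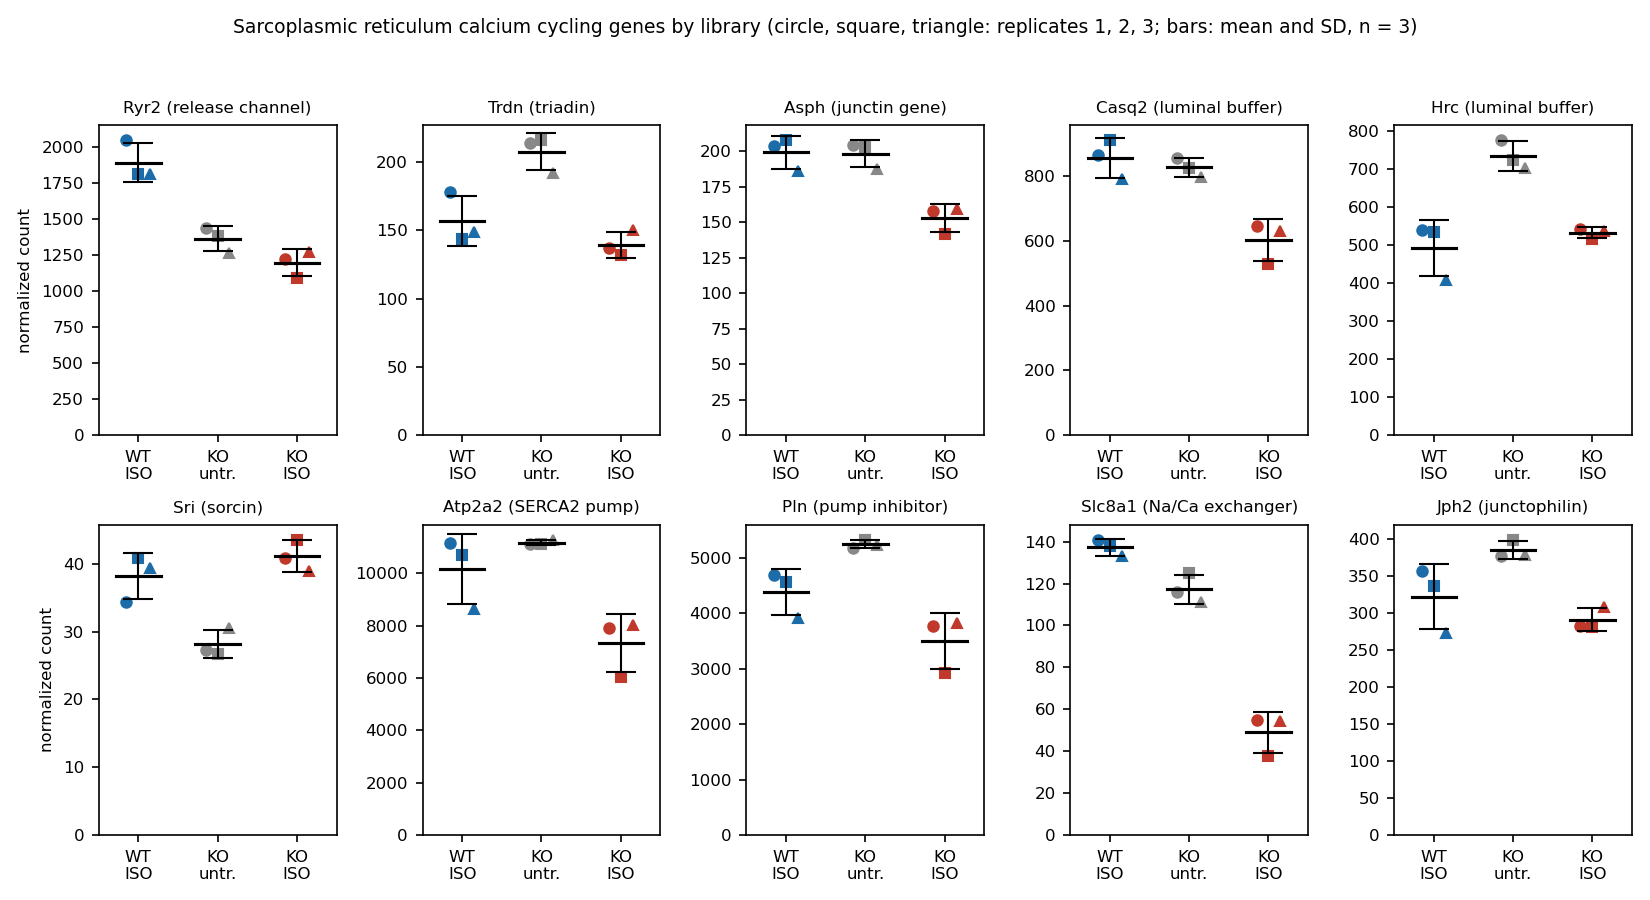
Normalized count of each gene in each library (vertical axes, from 0) by group (WT ISO, wild type with drug; KO untr., knockout without drug; KO ISO, knockout with drug), with bars for the mean and SD of n = 3. All 3 KO-ISO libraries lie below all other libraries for Slc8a1, Atp2a2, Pln, Casq2 and Asph; Ryr2 is highest in WT-ISO hearts, and Sri lowest in untreated KO hearts.

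Of the release unit, Ryr2 encodes the ryanodine receptor, the channel through which the store empties. It lies at chr13:11553102-12106945 on the minus strand of GRCm38. The 250 bases before its start are shown because Ryr2 was the only one of the 10 genes whose level was highest in WT-ISO hearts and called against both other groups. They are at chr13:12106946-12107195, minus strand, from RefSeq (GRCm38.p6), read 5′ to 3′.
Ryr2: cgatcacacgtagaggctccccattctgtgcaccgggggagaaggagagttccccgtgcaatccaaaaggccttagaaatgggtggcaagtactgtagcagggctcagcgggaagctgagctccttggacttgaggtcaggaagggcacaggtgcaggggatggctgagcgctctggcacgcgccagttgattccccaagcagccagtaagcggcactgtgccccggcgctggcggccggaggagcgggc
None of 6 motifs looked for was found in this window, so no letters are in capitals.

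Ryr2 was at 2048, 1813 and 1809 normalized counts in WT-ISO hearts, 1439, 1382 and 1266 in untreated KO hearts and 1222, 1089.7 and 1270.2 in KO-ISO hearts (replicates 1 to 3 in this and every list). The WT-ISO libraries lay above all others, and the knockout groups overlapped. The means were 1889.8 ± 137, 1363 ± 88.2 and 1194 ± 93.5 (SD, n = 3 each). The KO-ISO level was 1.58-fold lower than the WT-ISO level, with a log2 difference of -0.66 ± 0.08 (SE, adjusted p = 0.00039). WT-ISO hearts were above untreated KO hearts by 0.47 ± 0.08 on the log2 scale (adjusted p = 0.001). Between the knockout groups the log2 difference was -0.19 ± 0.08 and did not pass (adjusted p = 0.073). It passed at 0.048 without WT-ISO replicate 3, and was 0.0075 (adjusted p = 0.93) after cyclic loess scaling.

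Trdn encodes triadin, which anchors calsequestrin to the channel. Its counts were 178, 144 and 149 in WT-ISO, 214, 216 and 192 in untreated KO and 137, 132 and 150 in KO-ISO hearts. Untreated KO libraries were above all others, and the treated groups overlapped. Trdn was lower in KO-ISO than in untreated KO hearts by a log2 difference of -0.57 ± 0.09 (SE, adjusted p = 0.00017). It was lower in WT-ISO than in untreated KO hearts too, at -0.41 ± 0.09 (adjusted p = 0.0037), which became 0.053 when each library was centred on its myocyte markers. Between the treated groups it was -0.16 (95% interval -0.36 to 0.03, adjusted p = 0.19).

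Asph encodes, among other products of the same gene, junctin, a partner of triadin; these counts do not separate the products. Asph was at 203, 208 and 186 in WT-ISO, 205, 203 and 187 in untreated KO and 158, 142 and 159 in KO-ISO hearts. Its KO-ISO libraries were below every other library, and the other groups overlapped. KO-ISO hearts were lower than WT-ISO hearts by a log2 difference of -0.38 ± 0.08 (SE, adjusted p = 0.0036) and lower than untreated KO hearts by -0.37 ± 0.08 (adjusted p = 0.0011).

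Casq2 encodes cardiac calsequestrin, the main calcium buffer of the store. It was at 864, 912 and 791 normalized counts in WT-ISO, 857, 826 and 798 in untreated KO and 647, 529 and 631 in KO-ISO hearts. The KO-ISO libraries were again below all others. The mean of 602 ± 64.1 (SD, n = 3) stood against 856 ± 61.2 in WT-ISO and 827 ± 29.8 in untreated KO hearts. The log2 differences were -0.51 ± 0.09 (SE, adjusted p = 0.0016) and -0.46 ± 0.09 (adjusted p = 0.00064). Between WT-ISO and untreated KO hearts it was 0.05 (95% interval -0.14 to 0.23).

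Hrc encodes the histidine-rich calcium binding protein, a further buffer in the lumen. It was at 539, 534 and 409 in WT-ISO, 778, 724 and 703 in untreated KO and 544, 517 and 537 in KO-ISO hearts. Untreated KO libraries were above all treated ones, and WT-ISO replicate 3 was the lowest. Hrc was lower than in untreated KO hearts in both treated groups, by log2 differences of -0.46 ± 0.10 in KO-ISO (SE, adjusted p = 0.0014) and -0.58 ± 0.10 in WT-ISO hearts (adjusted p = 0.00056). Between the treated groups the difference was 0.12 (95% interval -0.09 to 0.33, adjusted p = 0.37), and it was -0.011 without WT-ISO replicate 3.

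Sri encodes sorcin, a calcium-binding protein that attaches to the ryanodine receptor and is made in many cell types. It was the only one of the 10 genes higher in both treated groups than in untreated KO hearts, which is why the 250 bases before its start, chr5:8045828-8046077 on the plus strand (RefSeq, GRCm38.p6), are shown. Capitals mark the letters of an M-CAT motif, the element that TEAD factors bind, starting 198 bases before the start site.
Sri: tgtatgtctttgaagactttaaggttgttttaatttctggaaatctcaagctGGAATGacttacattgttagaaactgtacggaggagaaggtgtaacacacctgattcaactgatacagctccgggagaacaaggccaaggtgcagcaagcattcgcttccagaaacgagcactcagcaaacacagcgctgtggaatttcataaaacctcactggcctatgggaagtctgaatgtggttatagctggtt
Sri was at 34.4, 40.8 and 39.4 normalized counts in WT-ISO, 27.3, 26.7 and 30.5 in untreated KO and 40.8, 43.6 and 38.9 in KO-ISO hearts. Every treated library was above every untreated one, and the treated groups overlapped. The log2 differences from untreated KO hearts were 0.53 ± 0.09 in KO-ISO (SE, adjusted p = 0.00024) and 0.43 ± 0.09 in WT-ISO hearts (adjusted p = 0.0024). Markers of 3 other cell types moved the same way. Of the endothelial markers 8 of 8 were higher in KO-ISO than in untreated KO hearts and 6 of 8 in WT-ISO hearts (median log2 differences 0.84 and 0.46). Of the 7 fibroblast markers tested it was 6 and 7 (0.82 and 1.02), and of the 5 smooth muscle and pericyte markers 4 and 3 (0.45 and 0.27). Their part in the Sri result was not tested. Sri rested on 217 to 480 reads per library, the lowest range among the 10 genes.

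For reuptake, Atp2a2 encodes the SERCA2 pump and lies at chr5:122453513-122502225 on the minus strand. It was at 11150.2, 10707 and 8637 normalized counts in WT-ISO, 11128, 11112 and 11296 in untreated KO and 7901, 6059 and 8028 in KO-ISO hearts. All KO-ISO libraries were below the others, with replicate 2 the lowest. The means were 10165 ± 1342, 11179 ± 102 and 7329 ± 1102 (SD, n = 3 each). KO-ISO hearts were 1.54-fold lower than untreated KO hearts, at a log2 difference of -0.62 ± 0.12 (SE, adjusted p = 0.00083). Against WT-ISO hearts they were 1.39-fold lower, at -0.47 ± 0.12 (adjusted p = 0.012). That call was lost without WT-ISO replicate 1, at -0.40 (adjusted p = 0.05, just above the threshold). It held without KO-ISO replicate 2, at -0.34 (adjusted p = 0.045).

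Pln encodes phospholamban, the inhibitor of the SERCA2 pump, and lies at chr10:53337667-53345987 on the plus strand. It was at 4693, 4560.25 and 3913 in WT-ISO, 5177, 5332 and 5238 in untreated KO and 3766, 2928 and 3827 in KO-ISO hearts. No groups overlapped: untreated KO was highest and KO-ISO lowest. Between WT-ISO and untreated KO hearts the log2 difference was -0.26 ± 0.11 (SE) and did not pass (adjusted p = 0.074). It passed in 8 of 28 alternatives, such as without KO-ISO replicate 2 (adjusted p = 0.019). Against untreated KO hearts, KO-ISO hearts were lower by a log2 difference of -0.59 ± 0.11 (SE, adjusted p = 0.00048). Against WT-ISO hearts the difference was -0.33 ± 0.11 (adjusted p = 0.035). That call was lost in 12 of 28 alternatives, among them without WT-ISO replicate 1 (adjusted p = 0.12), without WT-ISO replicate 2 (0.10), without KO-ISO replicate 2 (0.12), and without each untreated KO library (0.053, 0.055 and 0.05, the last just above the threshold). Pln overlaps Cep85l, which lies on the opposite strand and is also listed, and the sources used here do not give the strand setting of the counting.

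Pump and inhibitor were thus both lower in KO-ISO than in untreated KO hearts. Atp2a2 and Pln had the second closest profiles of the 45 pairs among the 10 genes, with a root mean square distance of 0.070 on the log2 scale over the 9 libraries. Casq2 and Asph were the closest at 0.066, and Slc8a1 and Sri the farthest at 0.83.

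Slc8a1 encodes the cardiac sodium-calcium exchanger NCX1, the extrusion arm, and lies at chr17:81373105-81738377 on the minus strand. It fell furthest of the 10 genes in KO-ISO hearts, and for that reason the 250 bases before its RefSeq start are shown. They are at chr17:81738388-81738637, minus strand (GRCm38.p6), and capitals mark a GATA motif that starts 68 bases before the start site.
Slc8a1: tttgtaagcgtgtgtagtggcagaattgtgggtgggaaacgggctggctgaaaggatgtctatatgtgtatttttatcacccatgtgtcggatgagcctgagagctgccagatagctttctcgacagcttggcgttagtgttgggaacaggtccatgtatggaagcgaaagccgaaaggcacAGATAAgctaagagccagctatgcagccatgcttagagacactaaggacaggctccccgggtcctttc
Slc8a1 was at 141, 138 and 133 normalized counts in WT-ISO, 116, 125 and 111 in untreated KO and 55.1, 37.6 and 54.3 in KO-ISO hearts. Every KO-ISO library was at less than the lowest value of any other library, 111, and no groups overlapped. The means were 137 ± 4.06, 117 ± 6.92 and 49.0 ± 9.89 (SD, n = 3 each), from 361 to 1538 reads per library. KO-ISO hearts were 2.80-fold lower than WT-ISO hearts, at a log2 difference of -1.49 ± 0.12 (SE, adjusted p = 2.5e-05), the 7th lowest of all 8543 genes. Against untreated KO hearts they were 2.40-fold lower, at -1.26 ± 0.12 (adjusted p = 3.6e-06). Without KO-ISO replicate 2 the differences were -1.31 and -1.09, and both calls held in all 28 alternatives. WT-ISO hearts were above untreated KO hearts by 0.23 ± 0.12, which did not pass (adjusted p = 0.16). It passed in 5 alternatives, such as without KO-ISO replicate 2 (adjusted p = 0.014).

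Jph2 encodes junctophilin 2, which fixes the store to the surface membrane. It was at 356, 337 and 272 in WT-ISO, 377, 399 and 378 in untreated KO and 282, 280.5 and 308 in KO-ISO hearts. Untreated KO libraries were above all treated ones, and the treated groups overlapped. Jph2 was lower in KO-ISO than in untreated KO hearts by a log2 difference of -0.41 ± 0.09 (SE, adjusted p = 0.0024). In WT-ISO hearts it was lower than in untreated KO hearts by -0.27 ± 0.09 (adjusted p = 0.038), a call lost in 15 of 28 alternatives. These included leaving out WT-ISO replicate 3 (adjusted p = 0.13), KO-ISO replicate 1 (0.051) and each untreated KO library (0.078, 0.13 and 0.075). Between the treated groups it was -0.14 (95% interval -0.34 to 0.06, adjusted p = 0.27), and it passed at -0.25 (adjusted p = 0.018) without WT-ISO replicate 3.

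**Figure D2:**
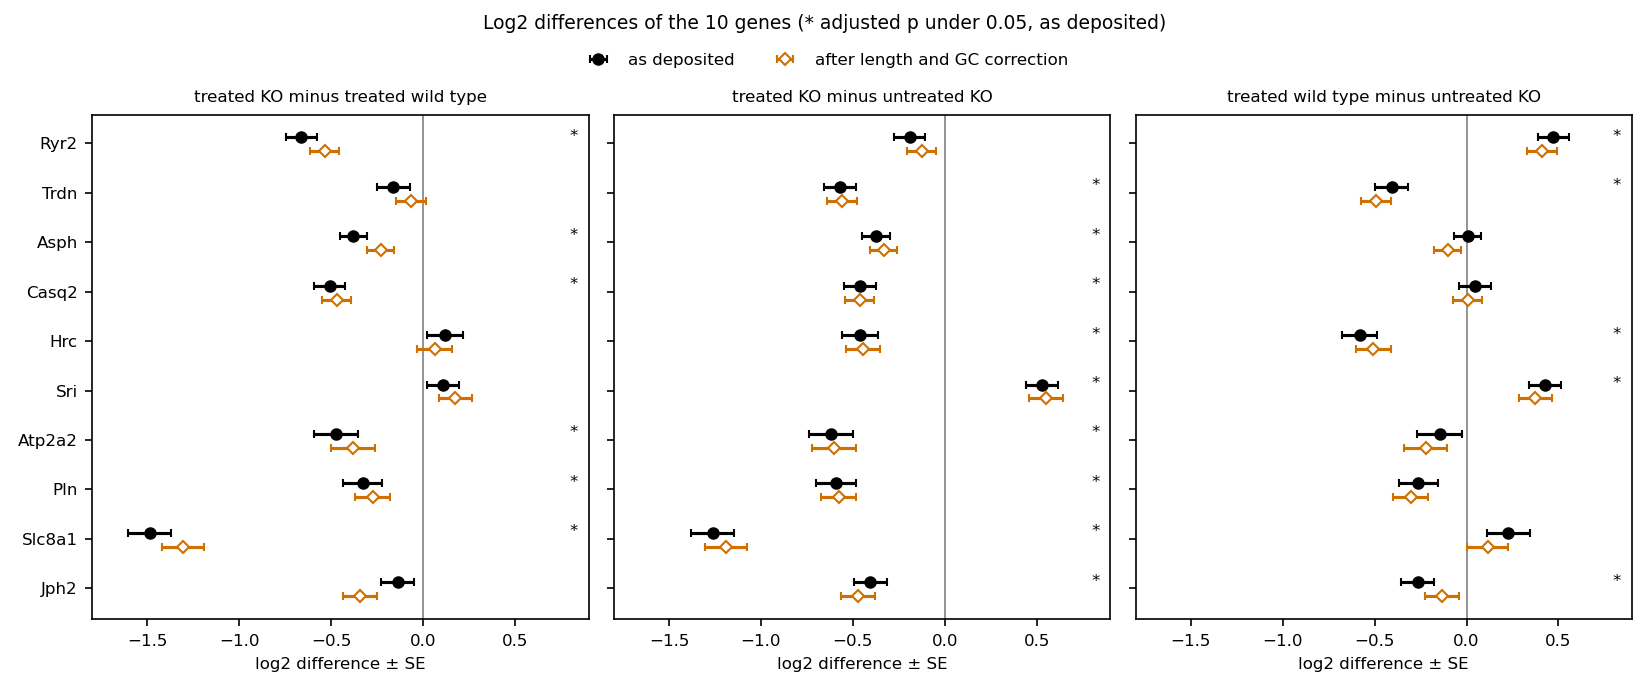
Log2 difference with its SE for each gene (rows) in the 3 comparisons (panels), as deposited in black and, in orange, with transcript length and GC content corrected for; stars mark an adjusted p under 0.05 for the deposited values. Slc8a1 lies farthest left in both comparisons with KO-ISO hearts, at -1.49 and -1.26.

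Counts over the 10 genes were read against the share of all tested genes called. In KO-ISO against WT-ISO hearts, 0 genes were higher and 6 lower, where 27.8% of all tested genes were called, 12% higher and 15.9% lower. The median log2 difference was -0.35 over the 10 genes and -0.014 over all tested genes. For 6 genes, all lower, the groups did not overlap, against 23.6% of all tested genes. In these hearts 7 of 8 endothelial markers were higher than in WT-ISO hearts, and of the myocyte markers Tnnt2 and Tnni3 were higher and Ttn lower, with a median of 0.03. With each library centred on its myocyte markers 6 genes were again lower, with a median of -0.42. Of all 8543 tested genes 1560 were then lower and 438 higher, with a median of -0.076.

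In KO-ISO against untreated KO hearts, 1 gene was higher and 8 lower, where 51.4% of all tested genes were called, 23.9% higher and 27.4% lower. The median was -0.46 over the 10 genes and -0.021 over all. Groups did not overlap for 8 genes that were lower and 1 that was higher, against 33.4% and 29.2% of all tested genes. All 5 atrial markers were lower in the same comparison. In WT-ISO against untreated KO hearts, 2 genes were higher and 3 lower, where 33.2% of all tested genes were called, 16.4% higher and 16.9% lower. The median was -0.070 over the 10 genes. Of the 10 myocyte markers 1 was higher and 3 lower here, with a median of -0.19. With each library centred on those markers, 5 of the calcium cycling genes were higher and 1 lower, and their median was 0.11. Of all 8543 tested genes 2826 were then higher and 525 lower, and their median was 0.18, above that of the 10 genes. Groups did not overlap for 4 genes that were lower and 3 that were higher, against 24.1% and 23.4% of all tested genes. The 5 atrial markers were lower here too, and their part was not tested. Without WT-ISO replicate 3 and KO-ISO replicate 2, the libraries that stood apart, 7 genes were lower and 0 higher between the treated groups, 8 lower and 1 higher between the knockout groups, and 3 lower and 3 higher in this comparison. Of all 8543 tested genes it was, in the same order, 1130 lower and 683 higher, 2212 lower and 1923 higher, and 1409 lower and 1451 higher. The 3 comparisons share groups, so their counts are not independent.

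Transcript length went with the difference between the treated groups. When the 8494 tested genes with a known length were put into 5 length groups, the shortest (151 to 2106 bases) had 380 genes higher and 52 lower in KO-ISO hearts, with a median log2 difference of 0.13. The longest (5652 to 106824 bases) had 102 higher and 484 lower, with a median of -0.12. That group holds Ryr2 (16814 bases), Slc8a1 (18464), Asph (6694) and Atp2a2 (5674), all lower. Casq2 (2556 bases) and Pln (2334), both lower, are in a group of shorter transcripts whose median was 0.0036. That group also holds Hrc (2411 bases) and Sri (2504), which were at 0.12 and 0.11 and did not pass. Trdn (4514 bases) and Jph2 (4211), which did not pass either, are in a group with a median of -0.060.

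With transcript length and GC content corrected for in each library, 6 of the 10 genes were again lower in KO-ISO than in WT-ISO hearts, where 20.2% of all tested genes were called and 11.4% were lower. Slc8a1 was at -1.31 (adjusted p = 6.9e-05), Ryr2 at -0.54 (0.0015), Casq2 at -0.47 (0.0028), Atp2a2 at -0.38 (0.039) and Asph at -0.23 (0.043). Jph2 passed at -0.34 (adjusted p = 0.022), and Pln did not, at -0.27 (0.057). With this correction and without KO-ISO replicate 2, 3 genes were lower (Slc8a1, Ryr2 and Casq2). Of all 8494 tested genes 499 were lower there, against 968 with all libraries, so calls were fewer among all genes too. Atp2a2 (-0.26) and Asph (-0.19) were both at an adjusted p of 0.13.

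**Figure D3:**
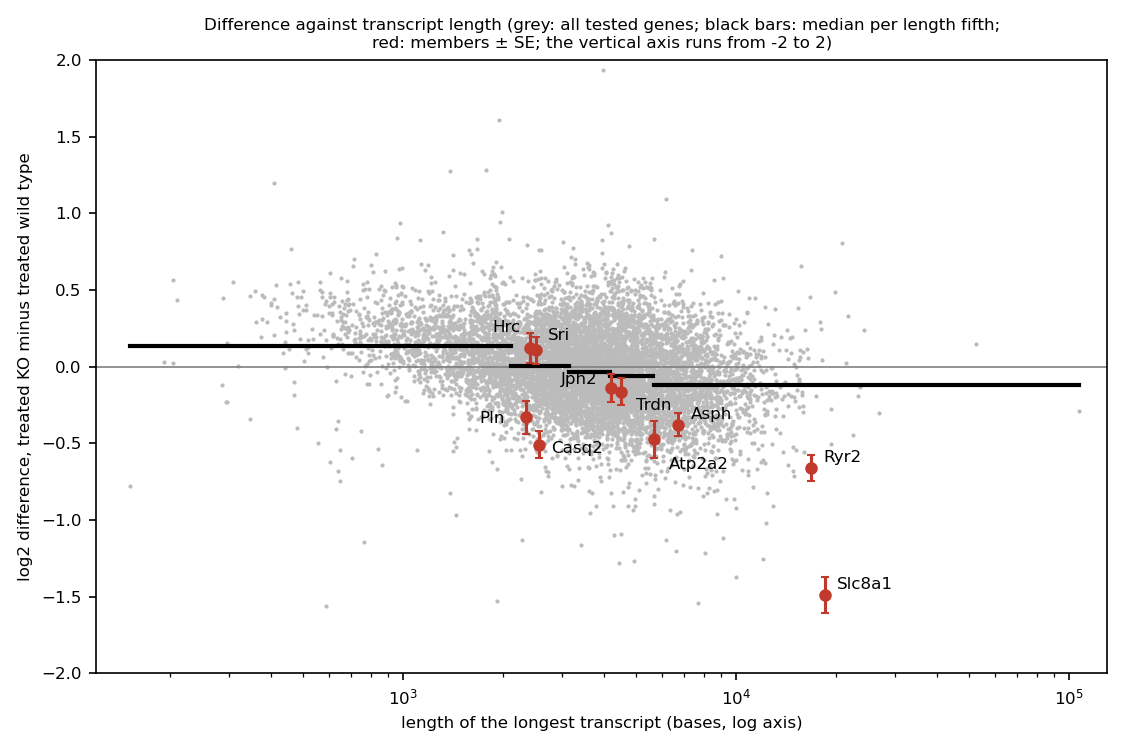
Log2 difference between KO-ISO and WT-ISO hearts (vertical) against the length of the longest transcript in bases (horizontal, log axis): grey points are all tested genes with a length, 5 of which lie outside the vertical axis, black bars the medians of the 5 length groups, and red points the 10 genes with SE. The black bars step down from 0.13 to -0.12, and Ryr2 and Slc8a1 lie below the bar of their length group.

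Levels per kilobase of the longest transcript allow the genes to be ordered within a group. In WT-ISO hearts Pln (1880.4 ± 179, SD) and Atp2a2 (1791 ± 236) were highest and overlapped, followed by Casq2 (335), Hrc (205), Ryr2 (112), Jph2 (76.4), Trdn (34.7), Asph (29.8), Sri (15.3) and Slc8a1 (7.44). No other neighbours overlapped there. In untreated KO hearts Jph2 (91.3) stood above Ryr2 (81.0), and Casq2 and Hrc overlapped. In KO-ISO hearts Pln and Atp2a2, Casq2 and Hrc, and Ryr2 (71.0) and Jph2 (69.0) overlapped. Slc8a1 was lowest in all groups, at 2.66 ± 0.54 per kilobase in KO-ISO hearts.

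Ratios within a library do not depend on a factor shared by all its genes, but a trend with transcript length need not cancel. They were compared by exact two-sided permutation tests, which with 3 libraries against 3 cannot give a p below 0.1, so none could pass; p-values were adjusted over 9 tests. The log2 ratio of pump to exchanger, Atp2a2 over Slc8a1, was 6.19 ± 0.16 in WT-ISO, 6.56 ± 0.09 in untreated KO and 7.20 ± 0.08 in KO-ISO hearts (SD, n = 3). No groups overlapped, and each difference had the smallest possible p (exact permutation p = 0.1, adjusted 0.129). These are counts of transcripts of unequal length, so the ratio orders libraries, not the genes.

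The log2 ratio of pump to inhibitor, Atp2a2 over Pln, was 1.21 ± 0.06 in WT-ISO, 1.09 ± 0.03 in untreated KO and 1.06 ± 0.01 in KO-ISO hearts. The WT-ISO libraries were above all others, and the knockout groups overlapped (difference -0.029, exact permutation p = 0.3). The log2 ratio of channel to luminal buffer, Ryr2 over Casq2, was 1.14 ± 0.13, 0.72 ± 0.05 and 0.99 ± 0.07 in the same order. It was lower in every untreated KO library than in any treated library, and the treated groups overlapped (difference -0.15, exact permutation p = 0.3).

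**Figure D4:**
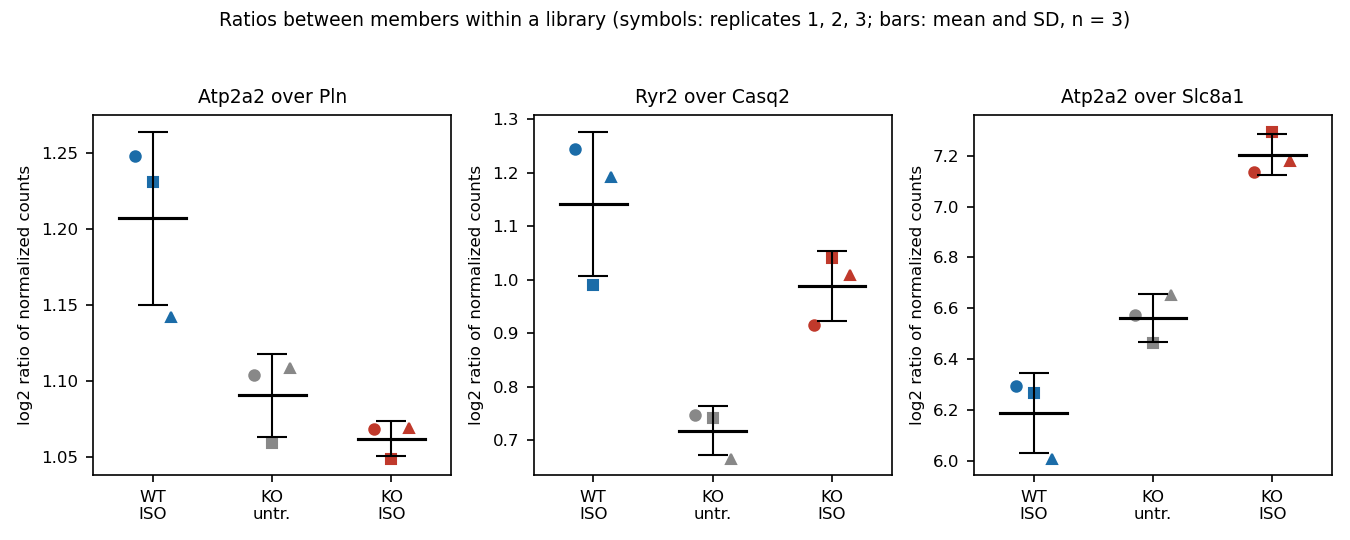
Log2 ratios of normalized counts within each library (vertical axes, not starting at 0) by group, with bars for mean and SD of n = 3. Atp2a2 over Slc8a1 runs from 6.19 in WT-ISO to 7.20 in KO-ISO hearts with no overlap, while Atp2a2 over Pln spans only 1.06 to 1.21.

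Of 54 further calcium handling genes, 48 were listed and 39 passed the filter. In KO-ISO against WT-ISO hearts 4 of the 39 were higher and 10 lower, where 12% and 15.9% of all tested genes were, with a median log2 difference of -0.023. Against untreated KO hearts 9 were higher and 16 lower in KO-ISO hearts (median -0.11), where 23.9% and 27.4% of all tested genes were. In WT-ISO hearts 9 were higher and 11 lower than in untreated KO hearts (median -0.049), where 16.4% and 16.9% of all tested genes were. Both lower counts against untreated KO hearts include Sln and Casq1, which passed the filter on low values only through untreated KO hearts. Both higher counts of KO-ISO hearts include Itpr3, and the one against untreated KO hearts also includes Slc8b1. Itpr3 and Slc8b1 passed that filter only through KO-ISO hearts, so these calls partly follow from it. Of the 16 tested genes of release and the junction, 2 were higher and 4 lower between the treated groups. Of the 7 of the pump and lumen it was 1 and 2, of the 10 of the surface membrane and store entry 0 and 3, and of the 6 mitochondrial ones 1 and 1.

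The genes with the smallest p between the treated groups were all lower in KO-ISO hearts. Ppp1r3a, a glycogen and sarcoplasmic reticulum targeting subunit of protein phosphatase 1, was at 75.5 ± 6.93 against 121 ± 15.7 (SD, n = 3), a log2 difference of -0.66 (adjusted p = 0.00067). Akap6, the scaffold that brings protein kinase A to the nuclear envelope and the ryanodine receptor, was at 98.4 ± 17.5 against 157 ± 13.2 (-0.68, adjusted p = 0.0014). Srl, encoding the luminal protein sarcalumenin, was at 692 ± 74.0 against 1025 ± 116 (-0.56, adjusted p = 0.0016). Camk2d, the main cardiac isoform of the calmodulin kinase that phosphorylates Ryr2 and Pln, was at 97.9 ± 9.18 against 132 ± 4.80 (-0.43, adjusted p = 0.0034). Calu, encoding calumenin, was at 259 ± 5.90 against 330.0 ± 20.8 (-0.35, adjusted p = 0.0034).

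Against untreated KO hearts, Calm2, encoding calmodulin, was higher in both treated groups. It was at 131, 129 and 126 in KO-ISO, 126, 134 and 128 in WT-ISO, and 69.8, 67.8 and 76.3 in untreated KO hearts. The log2 differences were 0.84 (adjusted p = 1.4e-06) and 0.85 (adjusted p = 2.9e-06), and no treated library overlapped an untreated one. Cacna2d1, an auxiliary subunit of the surface calcium channel, was lower in both, at -1.09 in KO-ISO (adjusted p = 7.5e-06) and -0.60 in WT-ISO hearts (adjusted p = 0.0014). Ppp1r3a (-0.80, adjusted p = 1.8e-05) and Camk2d (-0.68, adjusted p = 2.7e-05) were lower in KO-ISO than in untreated KO hearts. Calu was higher in WT-ISO than in untreated KO hearts (0.37, adjusted p = 0.0011). The atrial markers moved in both of these comparisons, and their part was not tested.

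Sln encodes sarcolipin, a further inhibitor of SERCA pumps found mainly in atria, and is one of the atrial markers above. It was at 134, 53.7 and 88.1 in untreated KO hearts, was listed at 0 in 5 of the 6 treated libraries and at 0.081 in KO-ISO replicate 3. It was lower in both treated groups (adjusted p = 2.9e-08 in KO-ISO and 2e-08 in WT-ISO hearts), as were the other 4 atrial markers. Like Myl7, Myl4 and Bmp10, Sln passed the filter on low values only through the untreated KO libraries. These genes were tested only because they were high there, so their lower calls partly follow from the filter.

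**Figure D5:**
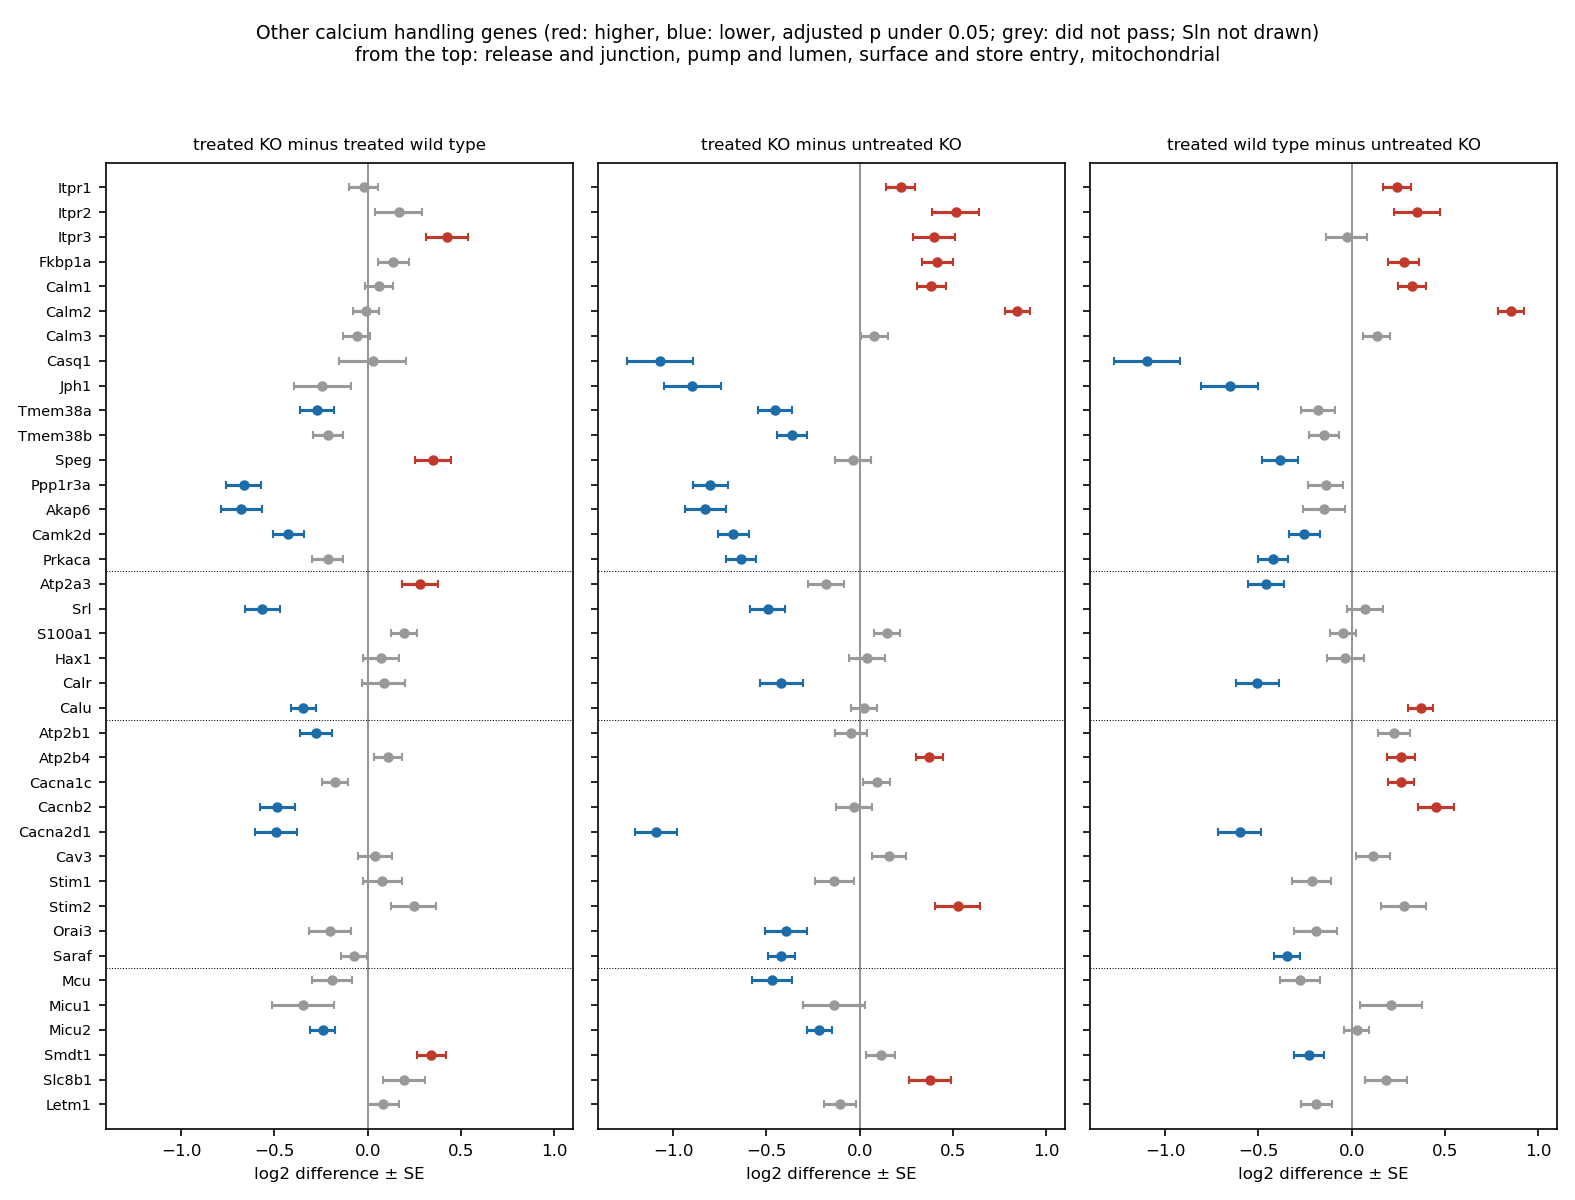
Log2 difference with its SE (horizontal) for the 38 other tested calcium handling genes drawn (Sln left out), in 3 comparisons (panels); red is higher, blue lower and grey did not pass an adjusted p of 0.05, and dotted lines part release and junction, pump and lumen, surface and store entry, and mitochondrial genes. Between the treated groups 10 are lower and 4 higher.

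Of the other members of these families, Ryr3, Atp2a1 and Slc8a2 were below the filter, with group means of 0.24 to 2.84 normalized counts. Casq1, the skeletal calsequestrin, was at 5.80 ± 1.01 in WT-ISO, 13.5 ± 1.91 in untreated KO and 5.95 ± 1.22 in KO-ISO hearts. It was lower in both treated groups, by log2 differences of -1.10 in WT-ISO (adjusted p = 0.00047) and -1.07 in KO-ISO hearts (adjusted p = 0.00026). Casq1 passed the filter on low values only through untreated KO hearts, so these lower calls partly follow from that filter. Jph1, the skeletal junctophilin, was also lower in both treated groups, at -0.65 in WT-ISO (adjusted p = 0.0053) and -0.90 in KO-ISO hearts (adjusted p = 0.0003).

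Inositol trisphosphate receptors are a further family of calcium release channels, present in many cell types, and their calls were all in the higher direction. Itpr2 was higher than in untreated KO hearts in KO-ISO hearts (0.51, adjusted p = 0.0038) and in WT-ISO hearts (0.35, adjusted p = 0.045, lost without any WT-ISO library, untreated KO replicate 1 or 2, or KO-ISO replicate 3, with an adjusted p up to 0.16). Itpr1 was higher by 0.22 (adjusted p = 0.027) and 0.24 (adjusted p = 0.026), each lost without untreated KO replicate 2 (adjusted p = 0.10 for both) or replicate 3. The first was also lost without KO-ISO replicate 2 or 3, and the second without WT-ISO replicate 1 or 3. Itpr3 passed the filter on low values only through KO-ISO hearts, so a higher call in those hearts partly follows from that filter. It was higher in KO-ISO than in WT-ISO hearts (0.43, adjusted p = 0.014, and 0.057 without KO-ISO replicate 2). Atp2a3, the SERCA3 pump, was also higher there (0.28, adjusted p = 0.045), a call lost whichever of the 9 libraries was left out (adjusted p up to 0.14). In WT-ISO hearts Atp2a3 was lower than in untreated KO hearts, at -0.46 (adjusted p = 0.0028), with no overlap. That call was lost with each library centred on its myocyte markers (adjusted p = 0.075). Endothelial markers were higher in all 3 comparisons, and their part was not tested.

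Profiles most like those of 3 of the genes were found by the root mean square distance of log2(value + 1) over the 9 libraries, each gene centred on its own mean. Nearest to Ryr2 were Klhl9 (0.078), Alpk2 (0.085) and Dyrk2 (0.093). Nearest to Slc8a1 were Inpp4b (0.16), Ppara (0.17) and Tead1 (0.17). Ppara encodes a nuclear receptor of fatty acid oxidation and was at 22.9, 22.6 and 9.99 on average in WT-ISO, untreated KO and KO-ISO hearts. Tead1, a TEAD factor, was at 115, 124 and 44.6. Nearest to Atp2a2 were Ndufs1 (0.044), a subunit of respiratory complex I, Oxct1 (0.053), an enzyme of ketone use, and Ank (0.053).

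Of the 10 genes, 7 matched a RefSeq promoter entry (Ryr2, Slc8a1, Pln, Casq2, Hrc, Jph2 and Sri). Both strands of the 250 bases before the start were searched for 6 motifs, and a match is a description of letters only. The GATA motif (AGATAA) was in the windows of Slc8a1 and Pln and in 9.99% of 32851 promoters. A TATA box (TATAAA) was in that of Pln and in 12.4% of promoters, and the M-CAT motif (GGAATG) in that of Sri and in 12.6%. None of the 7 held a MEF2 motif (CTA and TAG with any 4 bases between, 3.20% of promoters), an E-box (CACGTG, 6.02%) or a cAMP response element (TGACGTCA, 1.55%).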

How the data were processed

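RNA of 9 mouse heart libraries was measured by RNA-seq (TruSeq kit). The deposited signal is the authors' table of normalized expected counts, made with cutadapt, RSEM 1.17, limma and GRCm38 per the submitters' processing notes. Of the aligner, settings and strand of counting the sources used here say nothing. Within 0.02 reads, 100% of values were whole reads times a step per library, so edgeR and DESeq2 could be run on recovered reads as alternatives.

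Genes reaching 10 in 3 or more of 9 libraries were tested on log2(value + 1), with a pseudocount of 1, by limma 3.58.1 in R 4.3.3. The fit had 3 group means, 1 shared spread and a trend of variance with mean. The two-sided tests were Benjamini-Hochberg adjusted over 8543 genes at 0.05. Differences are on this log2 scale, which understates changes of low genes. The fit was tested on simulated data. Lengths, GC content and positions came from GENCODE M21 (GRCm38), in which 13385 IDs matched. The length and GC correction used natural splines with 5 degrees of freedom per library. Replicate numbers were not treated as pairs.

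The 10 genes, the lists of 54 further calcium handling genes and of cell markers, and the tests were chosen with earlier results of these data known. Named further genes were up to 5 with the smallest p among those called per comparison, and the paralogs. The 4 roles that divide them were assigned after values were seen. Alternatives covered pseudocounts, filters, scalings (TMM, without the mitochondrial genome, cyclic loess, centred on myocyte markers), the form of the fit, edgeR 4.0.16 and DESeq2 1.42.0, a replicate block, and each library left out. Ryr1 and Slc8a3 were not analysed here.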

Additional observations from a re-analysis of the deposited data

How the results depend on the processing

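The calls of Slc8a1, Ryr2 and Casq2 between the treated groups held in all 28 alternatives. The number of genes lower there ran from 4 to 7 over the leave-outs (0 higher in each), from 8 to 9 against untreated KO hearts (1 higher in each), and from 2 to 4 in WT-ISO against untreated KO hearts (2 to 3 higher). With the length and GC correction and without KO-ISO replicate 2, a setting chosen after seeing the data, 3 were lower between the treated groups, where 499 of 8494 tested genes were. A minimum value of 50 removed Sri, leaving 0 higher in KO-ISO and 1 higher in WT-ISO hearts against untreated KO hearts. Under cyclic loess 1 gene, Hrc, was higher between the treated groups (adjusted p = 0.033), and Ryr2 between the knockout groups was at 0.0075. Centring on myocyte markers shifted the median of all genes by up to 0.18. In WT-ISO against untreated KO hearts 2826 of all 8543 tested genes were then higher and 525 lower, with a median of 0.18. Of the 10 genes 5 were higher and 1 lower there, Atp2a2 was at 0.032, and the median over the 10 was 0.11. Over the leave-outs that median ran from -0.11 to 0.010, the latter without WT-ISO replicate 3 (with or without KO-ISO replicate 2). Hrc between the treated groups ran from -0.011 (without WT-ISO replicate 3) to 0.19. Asph in WT-ISO against untreated KO hearts, 0.0055 as deposited, was -0.0031 with TMM, -0.10 with the length and GC correction (also with the replicate block, or without KO-ISO replicate 2), and from -0.035 to 0.054 over the leave-outs, below 0 without WT-ISO replicate 1, WT-ISO replicate 2 or untreated KO replicate 3. The cause of these changes was not tested. The share of all calls that were higher, 43.0, 46.6 and 49.3% in the 3 comparisons as ordered in the report, was 56.6, 62.9 and 61.9% scaled without the mitochondrial genome and 21.9, 64.6 and 84.3% centred on myocyte markers. All genes called between the treated groups numbered 1023 higher and 1356 lower, 542 and 800 without KO-ISO replicate 2, and 358 and 601 at a threshold of 0.01. Same-numbered libraries correlated at -0.14 to 0.18, so the numbers were not taken as pairs. With the replicate block, 6 genes were lower between the treated groups, 8 lower and 1 higher between the knockout groups, and 2 lower and 2 higher in WT-ISO against untreated KO hearts, where Jph2 was at an adjusted p of 0.051. Ratios kept their direction under each alternative run. Sri, at 217 to 480 reads per library, and Slc8a1 carried the fewest reads.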
